A study of Mus musculus with 2 samples.

Results

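Ebf2-rich spinal neurons were defined here by counts of a single transcription factor gene. A nucleus was a member when its barcode held at least 4 unique molecular identifiers (UMIs, each standing for 1 captured transcript) of Ebf2 and at most 1 UMI over the inhibitory genes Gad1, Gad2, Slc6a5 and Slc32a1 together. By this rule 980 of 23814 nuclei were members: 425 of 16362 in the library of the lesion core and 555 of 7452 in the library of the distal cord. The nuclei came from adult iNeuroD1GFP mice, a transgenic line, that were injured in the spinal cord at postnatal day 60 and were given tamoxifen at 100 mg/kg/day on days 5 to 8 after injury. Cords of 3 mice were collected on day 10 after injury and each was divided into the lesion core and a distal piece. The labels give male animals and an age of 8 weeks for both libraries. Both libraries therefore share the transgene, the tamoxifen and the injury, and no uninjured cord and no animal without the transgene enters the comparisons. Neither the promoter that drives the transgene nor the pooling of the 3 mice is stated in the labels, and the second region is called distal in one place and peri-injury in another.

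Early B-cell factors (EBF) are DNA-binding transcription factors with a zinc-coordinating domain and a helix-loop-helix dimerisation motif. They act in differentiating and mature neurons, in B cells and in fat cells, and several members of the family are often active in the same neuron. The dorsal horn of the spinal cord receives touch, itch, pain and temperature signals from sensory axons. Most of its neurons are either excitatory, built in the embryo under factors such as Lmx1b, Tlx3 and Prrxl1, or inhibitory, built under factors such as Pax2. Excitatory cells load glutamate into vesicles with the transporter encoded by Slc17a6, and many also release a peptide.

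Each region was sequenced as 1 library, so no p-value is given, and intervals are 95% intervals of counting error only. The core library held 30469263 UMIs, with 500 to 45528 and a median of 1303 per nucleus. The distal library held 19049572 UMIs, with 500 to 69539 and a median of 1743. Member nuclei were deeper than other nuclei, in a rule that asks for a fixed number of UMIs: their medians were 2274 UMIs in the core and 3015 in the distal library. Doublets were not called and stay among the nuclei, and the deepest members held 19944 and 69539 UMIs. The 2 libraries shared 38 barcode strings, which included no core member and 1 distal member.

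The distal library did not match the male label in full. Xist, the RNA of the inactive X chromosome, was found in 15 of 16362 core nuclei but in 4258 of 7452 distal nuclei (57.1%). Among members, 433 of 555 distal nuclei (78.0%) and 0 of 425 core nuclei held a Xist UMI; 3 counts of that total would be 0.706%, and the exact 95% upper limit of the core share was 0.864%. Transcripts of 4 Y-linked genes were found in 224 core members (52.7%) and in 206 distal members (37.1%), and 154 distal members held both kinds. Region and animal therefore cannot be told apart in this pair of libraries, and the counts, the leading genes and each named gene that moved by over 1.5 times are given below also without the nuclei that held Xist.

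The rule fixed Ebf2 itself, and its values are a description. Core members held a median of 5 Ebf2 UMIs and at most 26, and distal members held a median of 6 and at most 36. Ebf2 made up 1840 CPM (UMIs of a gene scaled to a total of 1000000, over totals that leave Ebf2 out) in core members and 1473 CPM in distal members. Exactly 4 UMIs were held by 170 core and 145 distal members, the values just inside the threshold. Just outside it, 350 core and 199 distal nuclei held 3 Ebf2 UMIs with at most 1 inhibitory UMI. A further 64 core and 27 distal nuclei had at least 4 Ebf2 UMIs but 2 or more inhibitory UMIs, and these were deep nuclei with medians of 9275 and 11628 UMIs. Ebf2 was also seen at low counts outside neurons: 6 of 31 core and 93 of 1014 distal oligodendrocyte barcodes (nuclei with at least 10 UMIs of oligodendrocyte markers and none of Rbfox3, Snap25 or Syt1) held at least 1 Ebf2 UMI. The part of free RNA and of doublets in this was not tested. None held 4, with exact 95% upper limits of 11.2% in the core and 0.363% in the distal library (3 counts of those totals would be 9.68% and 0.296%).

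Members were neurons by their markers. Rbfox3, which encodes the nuclear antigen NeuN, had a UMI in 67.1% of core and 63.6% of distal members. Syt1, the calcium sensor of synaptic vesicles, had one in 94.1% and 96.0%. At least 2 UMIs over Rbfox3, Snap25 and Syt1 were held by 404 core and 524 distal members, and the remaining 21 and 31 fell short of that mark. Among all nuclei with 2 such UMIs, members made up 2.98% in the core (404 of 13573, interval 2.70 to 3.28) and 14.6% in the distal library (524 of 3598, interval 13.4 to 15.8). All nuclei of each library were also thinned to a depth of 1000 UMIs, for which 5182 core and 1515 distal nuclei were too shallow. After thinning, 8115 core and 2119 distal nuclei had 2 such UMIs. Of these, 0.863% and 3.68% had 4 or more Ebf2 UMIs and at most 1 inhibitory UMI. The distal share was the higher one on both scales, in 1 library each. Without the nuclei that held Xist it was 8.15% (104 of 1276, interval 6.71 to 9.79), against 2.98% in the core. Distal members held Xist more often (78.0%) than distal reference neurons (58.6%), and this share was not matched for depth.

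The members were compared, gene by gene, with reference neurons of their own library: nuclei with no Ebf2 UMI and at least 2 UMIs over Rbfox3, Snap25 and Syt1, weighted so that their depths matched those of the members over 10 bins of UMI number. There were 9855 reference neurons in the core library and 2088 in the distal library. A gene is called past 2-fold when it differed at least 2-fold and had at least 20 CPM and 10 UMIs on the higher side. In the core library 146 of 6844 genes tested (2.13%) were higher in members and 61 (0.891%) were lower. In the distal library 203 of 7390 genes (2.75%) were higher and 140 (1.89%) were lower. The lower genes include Gad1, Gad2 and Slc6a5, which the rule held down, and leaving these out gives 58 and 137. Both libraries placed 117 of the 6445 genes tested in both (1.82%) on the higher side and 20 (0.31%) on the lower side, and 0 genes were past 2-fold in opposite directions. Without Gad1, Gad2 and Slc6a5 the shared lower genes were 17.

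Most genes past 2-fold in one library had the same direction in the other. The 117 shared higher genes were 80.1% of the core list and 57.6% of the distal list, and all 181 distal genes that were also tested in the core had a core ratio above 1. The 20 shared lower genes were 32.8% of the core list and 14.3% of the distal list, and 39 of 43 core and 126 of 128 distal lower genes tested in both had a ratio below 1 in the other library. These counts on the lower side include Gad1, Gad2 and Slc6a5, whose direction the rule fixed in both libraries. Across the 6445 genes the log2 ratios of the 2 libraries had a Pearson coefficient of 0.758 and a Spearman coefficient of 0.598. Genes are not independent replicates, so these coefficients are descriptions.

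**Figure D1:**
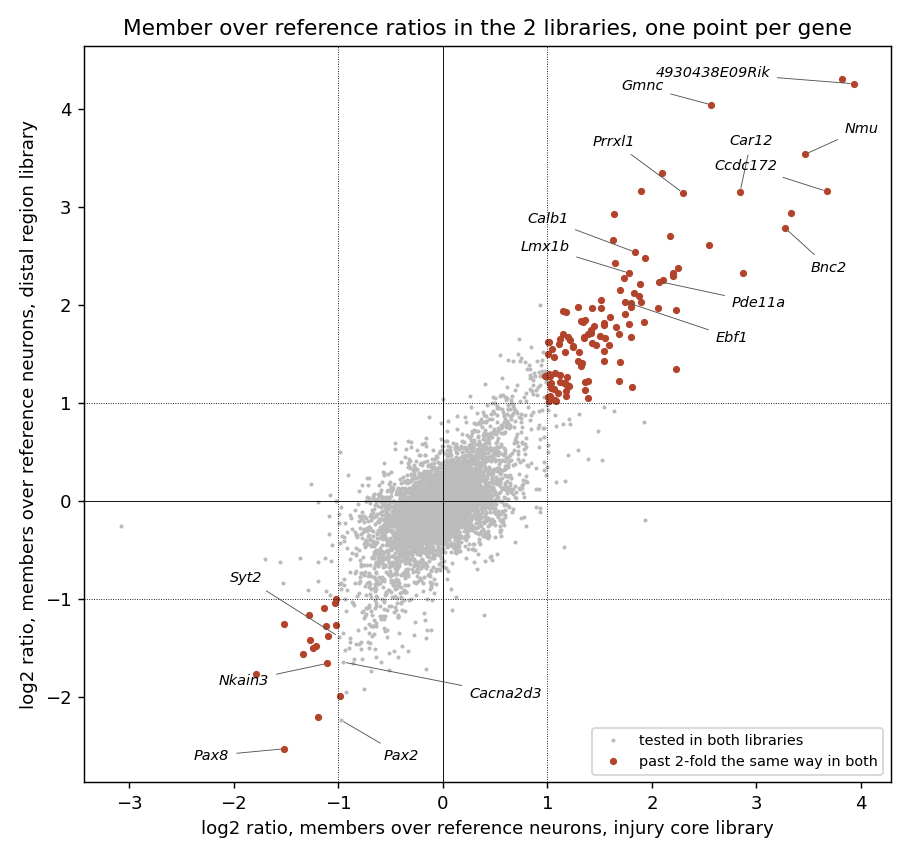
Member over reference ratio of every gene tested in both libraries, core on the horizontal axis and distal on the vertical axis, both as log2. The 6445 genes centre near 0, the named higher genes such as Nmu, Car12 and Bnc2 lie at the upper right, and Pax8 and Pax2 lie at the lower left.

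The steepest ratios belonged to transcripts of the Ebf2 locus. Ebf2 lies on the plus strand of chromosome 14 at 67233292 to 67430918 (GRCm38, GENCODE M21), and several non-coding genes lie inside it on the minus strand. One is 1700120O09Rik at 67324894 to 67335928, which was 17.4-fold higher in core members (interval 10.3 to 29.5) and 21.3-fold higher in distal members (12.9 to 37.2). Another is 4930438E09Rik at 67332042 to 67397742, with 16.3-fold and 19.7-fold. The labels do not say whether counting used the strand. Reads of these genes therefore cannot be told apart from reads of Ebf2, and they are no evidence separate from the rule; without the genes of this locus 144 core, 200 distal and 115 shared higher genes remain.

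The genes proposed as markers beside Ebf2 were higher in members of both libraries, but each was seen in only part of them. They had been chosen with these data in view, so their ratios are a description. Car12 encodes a carbonic anhydrase of the cell membrane and lies on chromosome 9 at 66713686 to 66766845. It measured 45.6 CPM in core members against 6.02 in reference neurons, 7.57-fold higher (5.25 to 10.9), and 47.9 against 5.20 CPM in the distal library, 9.22-fold higher (6.15 to 14.2). A Car12 UMI was present in 51 core members (12%) and 92 distal members (16.6%), so most members held none. Pde11a, on chromosome 2 at 75989141 to 76338774, encodes a phosphodiesterase that breaks down cyclic AMP and cyclic GMP. It measured 433 CPM in core members against 103 in reference neurons, 4.22-fold higher (3.81 to 4.66), and 449 against 94.9 CPM in the distal library, 4.73-fold higher (4.28 to 5.25). It was the most often seen marker, with a UMI in 230 core members (54.1%) and 313 distal members (56.4%). Nmu, on chromosome 5 at 76333495 to 76363788, encodes the peptide neuromedin U. It measured 38.6 CPM against 3.15 in the core, 12.3-fold higher (8.12 to 18.5), and 62.1 against 5.16 CPM in the distal library, 12.04-fold higher (8.27 to 17.99). A Nmu UMI was present in 40 core members (9.41%) and 90 distal members (16.2%). In distal oligodendrocyte barcodes, which should lack these genes, the shares were 0.592% for Car12, 7.89% for Pde11a and 1.97% for Nmu at a median of 1888 UMIs. The Nmu share in distal reference neurons, 1.77%, was no higher than that background. After thinning to 1000 UMIs, members still held each marker more often than reference neurons: Pde11a was in 33.4% against 11.5% in the core and in 36.4% against 8.46% in the distal library.

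**Figure D2:**
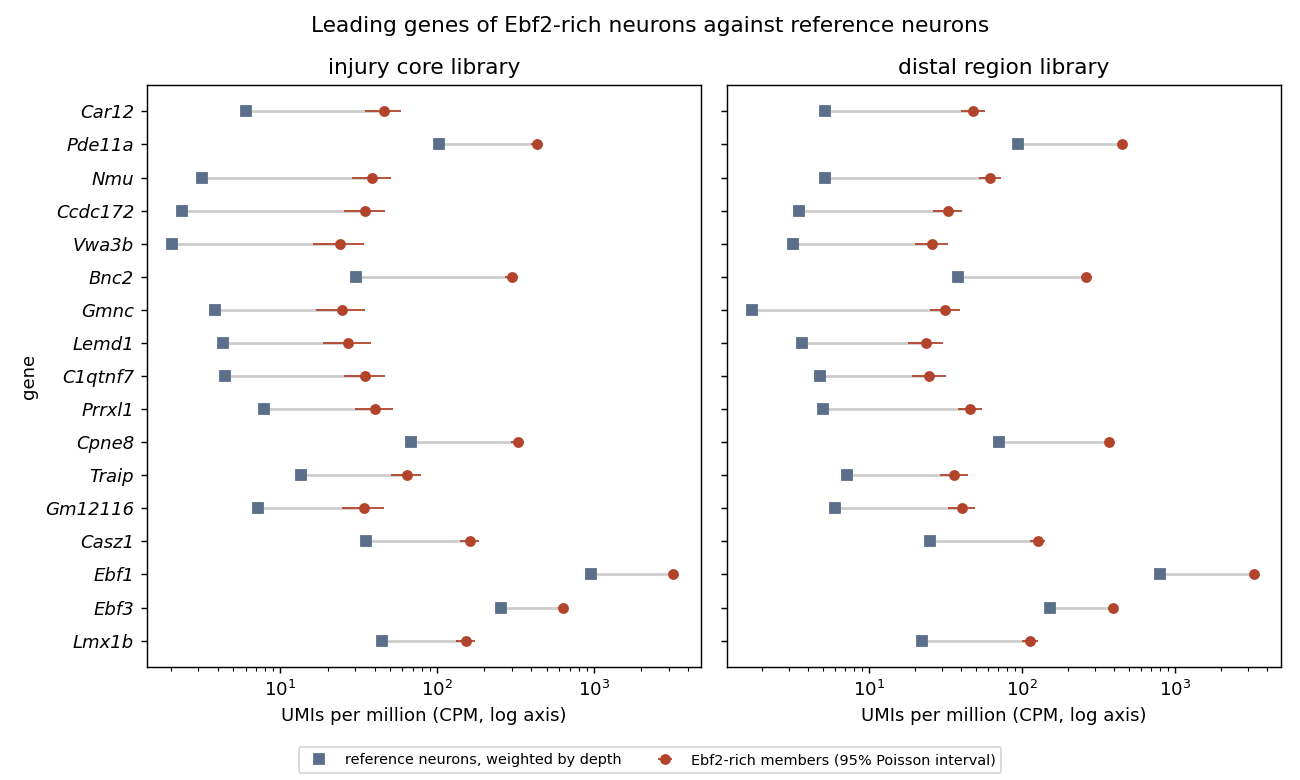
Levels in CPM of the markers and leading genes on a log axis, one panel per library, with members as circles and reference neurons as squares, and horizontal bars for the 95% counting interval of the members. In both panels the member point lies to the right of the reference point for every gene drawn.

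Several transcription factor genes were among the leading genes. Ebf1, a close relative of Ebf2 that lies on chromosome 11, was abundant in nearly every member, at 3225 CPM against 962 in core reference neurons and 3269 against 798 in the distal library. It was 3.35-fold higher in the core (3.23 to 3.47) and 4.10-fold higher in the distal library (3.95 to 4.25), and 98.8% and 99.3% of members held an Ebf1 UMI. The share in reference neurons was also high, at 70.9% and 64.6%, and distal oligodendrocyte barcodes held it in 38.7%. Ebf3 was 2.502-fold and 2.60-fold higher. The fourth relative, Ebf4, did not move with them: its level was 23.95 CPM in core members against 31.7, and 11.004 against 22.9 in distal members, which is past 2-fold lower in the distal library only. Of the 5 genes on the EBF list tested in each library, 2 were higher in the core, and 2 were higher and 1 lower in the distal library, with list medians of 0.37 and 0.39 on the log2 scale beside -0.03 and -0.05 over all genes tested. Bnc2, on chromosome 4, encodes the zinc finger protein basonuclin 2 and stood at 299 CPM against 30.5 in the core and 264 against 38.1 in the distal library. Its ratios were 9.80 (8.46 to 11.3) and 6.92 (5.96 to 8.06), and 30.1% and 32.1% of members held it. Casz1, another zinc finger factor, was 4.63-fold and 5.06-fold higher, and Gmnc, a regulator of multiciliated cell differentiation, was 6.43-fold and 18.3-fold higher at 24.7 and 31.4 CPM.

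Lmx1b and Prrxl1, factors of the excitatory dorsal horn lineage, were higher in members of both libraries. Lmx1b, on chromosome 2, is a LIM homeodomain factor needed for excitatory dorsal horn neurons. It measured 153 CPM in core members against 44.3 in reference neurons, 3.45-fold higher (2.92 to 4.08), and 113 against 22.3 CPM in the distal library, 5.06-fold higher (4.09 to 6.29). Prrxl1, a paired-like homeodomain factor of the same lineage, was 5.10-fold (3.58 to 7.18) and 9.18-fold higher (6.12 to 14.1). Of the 12 genes on this list 5 were tested in each library; Lmx1b and Prrxl1 were past 2-fold higher in both and none was lower, with medians of 0.62 and 0.98. Tlx3, the selector of glutamatergic over GABAergic fate, missed the minimum level, at 9.27 CPM against 1.38 in the core and 9.82 against 2.31 in the distal library. Phox2a was at 0 in the members of both libraries.

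The gene of the vesicular glutamate transporter was above the reference level in distal members but past 2-fold in neither library. Slc17a6 stood at 56.4 CPM in core members against 48.5 in reference neurons, a ratio of 1.16 (0.898 to 1.49), and at 57.8 against 31.9 CPM in the distal library, a ratio of 1.81 (1.44 to 2.29). The distal ratio was past 2-fold under some settings, at 2.28 without nuclei with 3 or more non-neuronal UMIs and 2.65 without the nuclei that held Xist. At least 3 non-neuronal UMIs, from 1 marker list, were held by 472 of 555 distal members (85.0%) and 1757 of 2088 distal reference neurons. Leaving these out kept only 83 distal members and 331 distal reference neurons. Slc17a6 was seen in 14.1% of members in the core and 20.5% in the distal library. Of the 4 genes for glutamatergic transmission tested in each library, 0 were past 2-fold in either. Neurod1, the factor that the transgene is named for, had 8 UMIs in core members and 22 in distal members. Its ratios over reference neurons were 1.54 (0.622 to 3.36) and 1.21 (0.677 to 2.12), both with an interval that includes 1. Whether these UMIs came from the transgene was not tested.

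Some factors of inhibitory neurons that the rule did not use were lower in members. Pax2, the paired-box factor of dorsal inhibitory neurons, measured 49.4 CPM in core members against 97.8, a ratio of 0.506 (0.386 to 0.652) that just missed the 2-fold mark. In distal members it measured 11.4 against 54.4 CPM, a ratio of 0.209 (0.138 to 0.307). Its relative Pax8 was lower in both, at ratios of 0.342 and 0.167. The reference was not limited in inhibitory genes, so part of this follows from how the groups were drawn: when reference neurons too were held to 1 inhibitory UMI, Pax2 stood at 0.577 and 0.292, and Pax8 at 0.400 and 0.189. On the list of inhibitory factors, 1 of 5 tested genes was lower in the core (Pax8) and 3 of 4 in the distal library (Pax2, Pax8 and Rorb), and none was higher, with medians of -0.66 and -1.71. Ventral and premotor factors were hardly measured, with 2 of 18 tested. Both of those, Foxp2 and the nuclear receptor gene Esrrg, were past 2-fold lower in distal members, at ratios of 0.376 and 0.445, and neither was in core members, at 0.896 and 0.624. Birth order factors, which mark early or late born neurons, had 14 tested genes in each library with 1 lower in the core and 2 in the distal library, and medians of -0.43 and -0.33. Young neuron genes had 11 tested in each, with 1 higher in the core (Stmn1) and 1 higher and 2 lower in the distal library, and medians of -0.08 and -0.07.

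Of the peptide and peptide receptor lists, Nmu, Reln and Tacr3 were past 2-fold higher in both libraries. Of 24 neuropeptide and secreted signal genes 3 were tested in the core, with 2 higher and 0 lower. In the distal library 4 were tested, with 3 higher and 1, Nxph1, lower, and the list medians were 1.39 and 1.53. Of 26 peptide and opioid receptor genes 8 were tested in the core, with 1 higher and 0 lower. In the distal library 7 were tested, with 2 higher and 1 lower, and the medians were 0.01 and -0.14. Reln, the gene of the secreted glycoprotein reelin, was higher by 2.62-fold (2.29 to 2.99) and 2.07-fold (1.83 to 2.34). Tac2, which encodes the neurokinin B precursor, was past 2-fold in the distal library at 20.8 against 5.01 CPM and had 14.7 against 3.83 CPM in the core, under the minimum level. Tacr3, the receptor for neurokinin B, was 2.61-fold (1.91 to 3.52) and 3.64-fold higher (2.68 to 4.98). Tacr1, the substance P receptor, was past 2-fold lower in the distal library only, at 14.9 against 30.7 CPM. Nmur2, a receptor for neuromedin U, differed between the libraries: it measured 13.1 CPM in core members against 19.1, and 45.6 against 22.02 in distal members.

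Among ion channels a few genes of large lists passed 2-fold. Cacna2d1, the alpha2delta subunit of voltage-gated calcium channels that gabapentin binds, stood at 1132 CPM in core members against 397, 2.85-fold higher (2.69 to 3.03), and at 1229 against 314 CPM in the distal library, 3.92-fold higher (3.69 to 4.16). Cacna1h, a T-type calcium channel, was 2.64-fold and 3.29-fold higher. Cacna2d3, a relative of Cacna2d1, had ratios below 1, at 0.514 (0.476 to 0.555) and 0.320 (0.291 to 0.350). Counts over the 21 sodium, calcium and HCN channel genes tested were 2 higher and 0 lower in the core, and 3 higher and 1 lower in the distal library, with medians of 0.03 and 0.04. Of 25 potassium channel genes 2 were higher in the core and 5 in the distal library, with medians of 0.08 and 0.33; Kcnd3, which carries A-type current, was 2.23-fold and 2.31-fold higher, and Kcnh8 was 2.58-fold and 2.20-fold higher. Kcnmb2, an auxiliary subunit of large-conductance potassium channels, had ratios of 0.524 and 0.347. Receptor genes for the fast transmitters were near the reference level: 0 of 22 glutamate receptor genes were past 2-fold in the core, and Grin3a higher and Grik3 lower in the distal library. For GABA-A and glycine receptors 0 of 15 were past 2-fold in the core and 1, Gabrg3 at 1.83-fold in the core and 2.48-fold in the distal library, in the distal one, and the medians were 0.21 and 0.42. The glutamate receptor medians were 0.13 and -0.03.

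Signalling enzymes and calcium-binding proteins supplied further members of the shared set. Prkg2, the type II cyclic GMP-dependent kinase, was 3.29-fold and 2.68-fold higher beside Pde11a, and these were the 2 of 24 cyclic nucleotide genes past 2-fold in the core. In the distal library 3 of 25 were higher (Pde3a, Pde11a and Prkg2) and 2 were lower (Pde2a and Pde8b), and the list medians were -0.04 and 0.05. Car8, a carbonic anhydrase relative without catalytic activity, was 3.86-fold and 4.35-fold higher beside Car12. Calb1, which encodes the calcium buffer calbindin, was 3.67-fold (2.62 to 5.07) and 5.93-fold higher (4.27 to 8.34), and Necab1 was 2.05-fold and 2.31-fold higher. The neurofilament genes Nefl and Nefm, markers of large-calibre axons, were past 2-fold lower in distal members, at 11.004 against 27.4 and 11.4 against 28.6 CPM, and had 6.18 against 17.2 and 23.95 against 26.6 CPM in the core. The vesicle calcium sensors Syt5, Syt9 and Syt10 were 2.15-fold to 2.27-fold higher in the core and 2.18-fold to 3.06-fold higher in the distal library. Syt2, the sensor of fast synchronous release, had ratios of 0.5002 and 0.382. Over the 25 synaptic vesicle genes tested, 3 were higher and 0 lower in the core. In the distal library 3 were higher and 3 lower (Syt2, Sv2c and Cplx1), and the list medians were -0.06 and -0.05.

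Adhesion and axon guidance genes passed 2-fold one by one, with list medians near those of all genes. Cntnap5c, a neurexin-like adhesion protein gene, was 3.24-fold (3.02 to 3.47) and 4.46-fold higher (4.13 to 4.83), and Nrp1, the semaphorin and VEGF co-receptor, was 2.11-fold and 2.05-fold higher. Cdh7, a cadherin, was lower at 0.487 and 0.482. Over the 41 adhesion genes the counts were 2 higher and 1 lower in the core, and 1 higher and 5 lower in the distal library, with medians of -0.12 and -0.18. Over 30 axon guidance genes they were 1 higher and 0 lower, then 3 and 3, with medians of -0.01 and 0.05. Hox genes, which mark position along the cord, gave 0 of 18 past 2-fold in the core and 0 of 16 in the distal library, with medians of -0.03 and 0.40. Neurotrophic receptor genes gave 0 of 7 in each. Of 16 axon injury genes 3 were tested in the core, where Ecel1 was lower, and 1 in the distal library, where it was within 2-fold.

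The largest ratios by the fixed naming rule also include genes with no clear place in these lists. Ccdc172, a coiled-coil protein gene, was 14.7-fold (9.28 to 23.3) and 9.40-fold higher (5.77 to 15.97), and Vwa3b was 11.8-fold and 8.12-fold higher. C1qtnf7, Lemd1, Traip and Cpne8 lay between 4.71-fold and 7.88-fold in both libraries. The distal value of C1qtnf7 fell to 1.16 when nuclei with 3 or more non-neuronal UMIs were left out, which kept 83 distal members. Of these Cpne8, a calcium-dependent membrane-binding copine, was the most abundant, at 326 against 68.3 CPM in the core and 371 against 71.2 CPM in the distal library. Nkain3, a gene for a protein that interacts with the sodium pump, was among the lowest, at 232 against 500 and 91.2 against 289 CPM. Runx2 and Htr4, a serotonin receptor gene, lay between 0.499 and 0.532 in both.

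**Figure D3:**
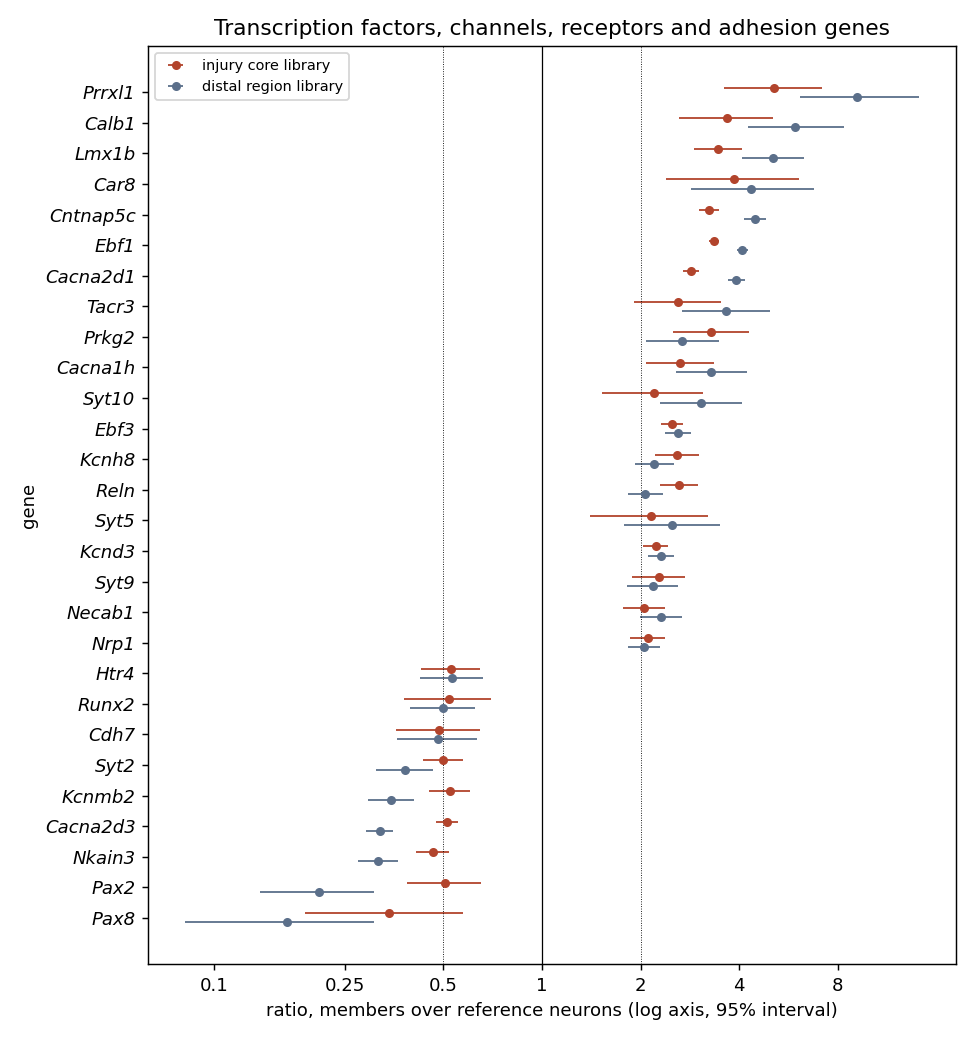
Member over reference ratio on a log axis for named transcription factor, channel, receptor, enzyme and adhesion genes, ordered by size, with a point and a 95% counting interval for each library. Dotted lines mark 2-fold in either direction; Prrxl1, Calb1 and Lmx1b lie farthest to the right, and the distal points of Pax2 and Pax8 lie farthest to the left.

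Summed markers of oligodendrocytes, astrocytes and microglia were within 2-fold of the reference level in members, while those of endothelium were lower and the ependymal sum was higher. Oligodendrocyte markers summed to 464 CPM in core members against 379 in reference neurons, and to 3703 against 3945 CPM in the distal library, where 8 of 8 were tested and 0 passed 2-fold. Astrocyte markers summed to 81.9 against 65.1 and 333 against 357 CPM, and microglial and macrophage markers to 73.4 against 90.0 and 218 against 193 CPM. Endothelial markers summed to 17.8 against 65.7 CPM in core members, where Flt1 was past 2-fold lower, and to 29.9 against 60.4 CPM in distal members. Mural cell markers summed to 9.27 against 21.5 and 39.7 against 34.5 CPM. The ependymal list summed to 97.3 against 36.8 and 144 against 37.9 CPM, and Cfap54 alone supplied 91.2 and 138 CPM of that. Cfap54, a protein of the central apparatus of motile cilia, was 3.60-fold and 4.38-fold higher, while the ependymal master factor Foxj1 had 4 UMIs in core and 1 in distal members. Markers of neurons contacting the cerebrospinal fluid were lower in distal members, at 52.3 against 187 CPM. The part of free RNA and of doublets in these sums was not tested.

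Ebf1 and Bnc2 were higher in nuclei with 4 Ebf2 UMIs than in nuclei with 1 to 2, and Bnc2 changed less beyond 4. Ebf1 rose further to 5 to 7 UMIs in the core, while in the distal library it was nearly level from 3 to 4. The groups also differ in depth, with medians of 1416 to 3118 UMIs in the core and 1854 to 3727.5 in the distal library. Ebf1 stood at 1735 CPM in core nuclei with 1 to 2 Ebf2 UMIs, 2515 with 3, 2886 with 4, 3394 with 5 to 7 and 3397 with 8 or more. In the distal library the same steps were 1845, 3305, 3344, 3485 and 3005 CPM. Bnc2 went from 90.7 to 178 and then to 300 CPM at 4 UMIs in the core, and from 125 to 216 to 276 CPM in the distal library. Nuclei just outside the rule thus carried much of the same profile, with Pde11a at 370 CPM in the core and 429 CPM in the distal library at 3 Ebf2 UMIs. Nmu was the marker that differed most across the line in the core, at 11.3 CPM with 3 and 41.6 CPM with 4 Ebf2 UMIs.

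**Figure D4:**
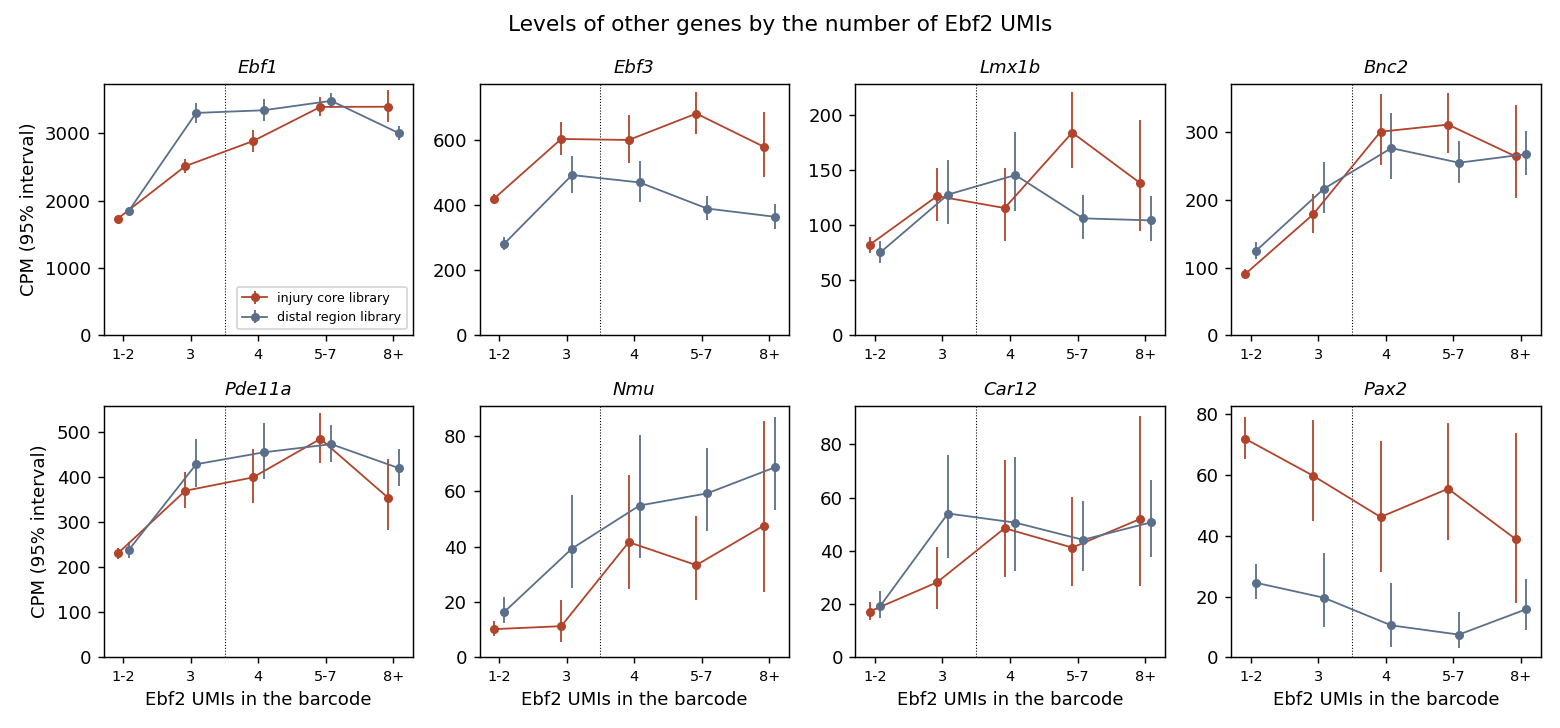
Level in CPM of 8 genes in nuclei grouped by their number of Ebf2 UMIs, from 1 to 2 up to 8 or more, for the core and distal libraries, with 95% counting intervals. For Bnc2 the levels climb up to the 4-UMI threshold and change less above it. Ebf1 rises further to 5 to 7 UMIs in the core and is nearly level from 3 to 4 in the distal library.

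Narrower references, chosen by Lmx1b or by Slc17a6, were drawn after the first results were seen, and the Lmx1b reference was not limited in inhibitory genes. Bnc2 and the markers were higher against these too. Against reference neurons with at least 1 Lmx1b UMI (713 in the core and 125 in the distal library) Bnc2 was 7.04-fold and 4.85-fold higher, Nmu 12.7-fold and 3.88-fold, and Car12 3.41-fold and 4.82-fold. Pde11a was 3.57-fold and 2.36-fold higher and Ebf1 2.75-fold and 2.73-fold. Against neurons with a Slc17a6 UMI and no inhibitory UMI (688 and 136 nuclei) Bnc2 was 8.46-fold and 5.97-fold higher, while Lmx1b fell short of 2-fold at 1.87 and 1.78. Reln was at 1.64 in the core and 0.921 in the distal library against that reference. Pax2 stood at 1.40 (0.483 to 5.66) in the distal library against the Lmx1b reference and Pax8 at 1.14 (0.530 to 2.41) in the core against the Slc17a6 reference, so their direction turned there, with intervals that include 1. Of the 34 named genes past 2-fold higher in both libraries, 22 stayed so in both against the Lmx1b reference and 28 against the Slc17a6 reference. Those that fell short in at least 1 library against the Lmx1b reference were Cacna1h, Cacna2d1, Ebf3, Kcnd3, Kcnh8, Lmx1b, Necab1, Nrp1, Reln, Syt5, Syt9 and Syt10. Against the Slc17a6 reference they were Cacna1h, Cacna2d1, Kcnd3, Lmx1b, Reln and Syt5.

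The members were not uniform, and the peptide marker and the phosphodiesterase marker tended to fall in different nuclei. Pde11a was found in 15 of 40 core members with a Nmu UMI (37.5%) and in 215 of 385 without one (55.8%). In the distal library it was found in 22 of 90 with Nmu (24.4%) and in 291 of 465 without (62.6%). Without the nuclei that held Xist the distal counts were 4 of 21 (19.0%) and 54 of 101 (53.5%). Members with Nmu and no Pde11a numbered 25 in the core and 68 in the distal library, and members with Pde11a and no Nmu numbered 215 and 291. Both genes were seen in 15 and 22 members, and neither in 170 and 174. The first 2 sets had like median depths, at 2416 and 2405 UMIs in the core and 3068 and 2832 in the distal library. Their UMI totals were 74165 and 750635 in the core and 227653 and 1434852 in the distal library. The levels below pool these UMIs without depth weights, so deep nuclei count for more. Members with both genes had medians of 2785 and 5977 UMIs. This split was chosen after values were seen and is described without a test.

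Members with Nmu carried more of a set of channel and developmental factor genes. Trpm3, a heat- and steroid-gated cation channel gene, measured 6757 CPM against 1832 in core members with Pde11a, and 7731 against 1364 CPM in the distal library. These are ratios of 3.69 (3.32 to 4.09) and 5.67 (5.31 to 6.05). Sox5, a SoxD transcription factor gene, was 3.39-fold and 4.47-fold higher and was found in 24 of 25 and 66 of 68 members with Nmu, against 103 of 215 and 145 of 291 with Pde11a. Tshz3, a teashirt zinc finger factor gene, was 2.40-fold and 5.48-fold higher. The G protein subunit gene Gna14 was 5.40-fold and 6.05-fold higher, and the fast-spiking potassium channel gene Kcnc2 2.23-fold and 5.28-fold. These genes were picked as the most different ones, so the values are a description.

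Members with Pde11a carried more Bnc2, Cpne7, Otof and Sntb1. With Pde11a, 84 of 215 core members and 118 of 291 distal members had a Bnc2 UMI, against 4 of 25 and 6 of 68 with Nmu, and its level ratio, Nmu over Pde11a, was 0.149 (0.0404 to 0.387) and 0.0816 (0.0298 to 0.179). Cpne7 was found in 97 of 291 distal members with Pde11a and in 0 of 68 with Nmu. Reln had ratios of 0.471 and 0.0837 in the same direction. Ebf1 was alike in both sets, at 1.16 and 1.18, and Lmx1b had 1.83 (1.09 to 2.94) in the core and 1.14 (0.746 to 1.69) in the distal library. In the distal library 113 genes were past 2-fold with Nmu and 314 with Pde11a, at 50 CPM and 20 UMIs or more. No share over all genes was computed for these counts, and they cannot be set against each other. The set with Nmu holds fewer UMIs, so 20 UMIs asks for a higher level there. Pde1b had 21 UMIs at 92.4 CPM with Nmu, while Fli1 passed at 50.2 CPM with Pde11a. The top gene of the first set, 4930432L08Rik, lies antisense to Nmu and cannot be told apart from it. In the core 100 and 252 of them had the same direction, and 49 and 115 were past 2-fold. Some genes of the Pde11a side were nearly absent in the core. Fli1, Adap2, C4b and Runx1 had 72, 78, 77 and 81 UMIs in distal members with Pde11a, and 3, 3, 11 and 7 in core members with it.

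**Figure D5:**
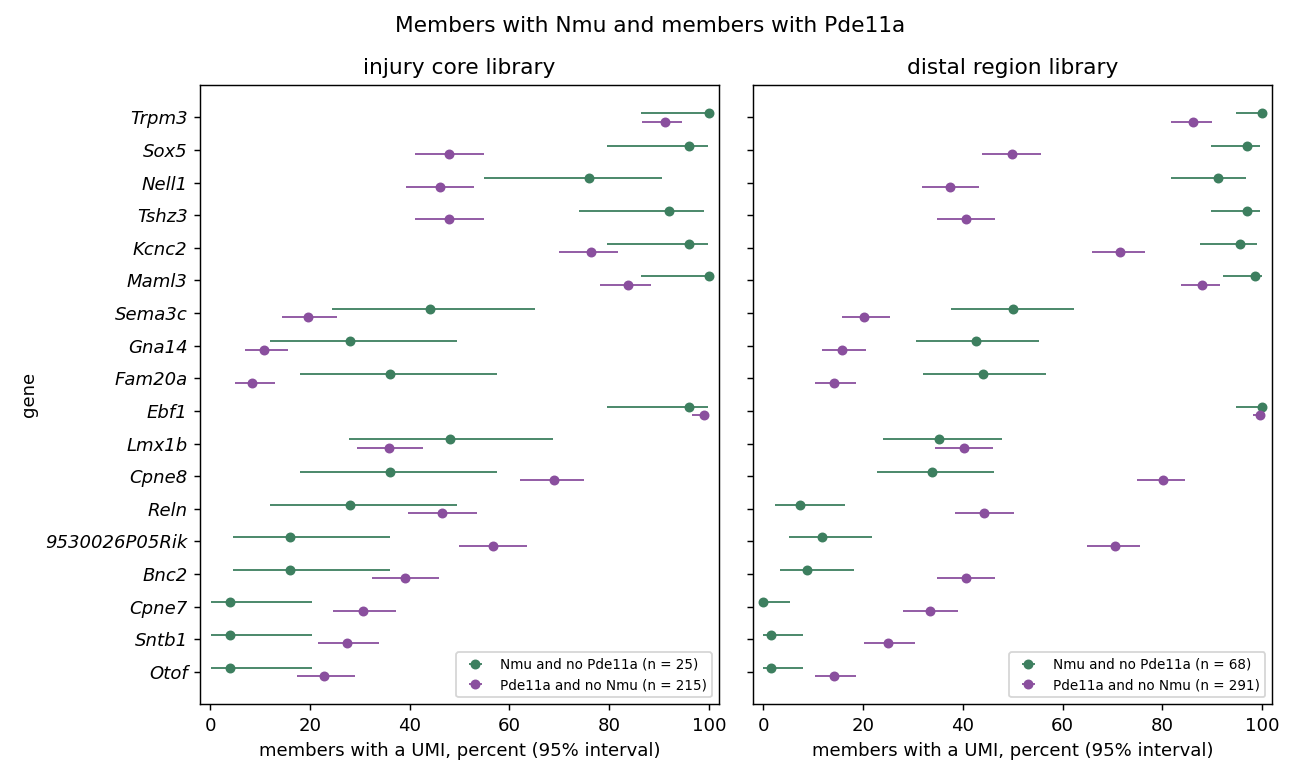
Percent of members with a UMI of each gene, one panel per library, for members with Nmu and no Pde11a (25 core, 68 distal) and members with Pde11a and no Nmu (215 core, 291 distal), with 95% Clopper-Pearson intervals. Sox5 and Tshz3 are seen in most members with Nmu, Ebf1 in nearly all members of both sets, and Bnc2, Cpne7, Sntb1 and Otof mostly in members with Pde11a.

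Core and distal members had like levels of Car12, Pde11a, Ebf1 and Bnc2, and unlike levels of Nmu and of other genes. Ebf2, which the rule fixed, had a core over distal ratio of 1.25 (1.19 to 1.32). Between core and distal members the ratio was 0.951 for Car12 (0.685 to 1.31), 0.965 for Pde11a (0.871 to 1.07), 0.987 for Ebf1 (0.9503 to 1.02) and 1.13 for Bnc2 (0.998 to 1.29). Nmu was lower in core members at 0.622 (0.443 to 0.860), and the reference neurons had a like ratio of 0.611 (0.388 to 0.974). Ebf3 was higher in the core at 1.61 (1.47 to 1.77), against 1.68 in reference neurons, and Lmx1b at 1.36 (1.13 to 1.63) against 1.99. Of 7386 genes tested, 282 (3.82%) were past 2-fold higher in core members and 785 (10.6%) were lower. The same comparison of reference neurons gave 103 higher (1.39%) and 755 lower (10.2%) of 7409 genes.

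Glial genes were among the lowest in core members. The lowest ratios were those of Tsix and Xist, at 0 UMIs in core members, followed by Cdh19 at 0.0266, Mal at 0.0351, Bcas1os2 at 0.0364, Selenop at 0.0437, Gfap at 0.0439 and Ptgds at 0.0485. All 8 oligodendrocyte markers were past 2-fold lower, with a sum of 464 CPM in core members against 3703 in distal members. Reference neurons showed the same glial difference, with Cdh19 at 0.0459 and Mal at 0.0261. With the nuclei that held Xist left out, Cdh19 stood at 0.0338, Mal at 0.0605, Bcas1os2 at 0.0806 and Gfap at 0.121, and the count became 630 higher and 484 lower. With nuclei that held 3 or more UMIs of any non-neuronal marker list left out, it became 805 higher and 246 lower, so the balance of the 2 directions turned. That setting kept 375 core and 83 distal members.

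Genes higher in core members included receptor and position genes. Grik3, a kainate receptor subunit gene, had 114 CPM in core members against 27.5 in distal members, a ratio of 4.16 (3.11 to 5.61), against 2.005 in reference neurons. Hoxc5 was 3.71-fold higher (2.92 to 4.74), against 2.65-fold in reference neurons, and 6 of 16 Hox genes tested were past 2-fold higher: Hoxc4, Hoxc5, Hoxc8, Hoxc9, Hoxc10 and Hoxd3. The annotated Hoxc5 gene overlaps Hoxc6, Hoxc8, Hoxc9 and Hoxc10 on the same strand, so their counts cannot be taken as separate. Lypd6b was 3.76-fold higher, Syt2 3.62-fold and Samd5 3.32-fold. Without the nuclei that held Xist, Grik3 stood at 17.9-fold, Hoxc5 at 6.05-fold, Lypd6b at 6.93-fold and Samd5 at 8.59-fold. That setting kept 122 distal members. Over all 555 distal members these genes had 70, 106, 45 and 42 UMIs, and fewer remained in the 122. No interval is given for these values, so they are no measure of a larger difference. The level along the cord, the lesion and the animals of the 2 libraries cannot be told apart as sources of these differences.

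The distal comparison with reference neurons was repeated without the nuclei that held Xist, which left 122 distal members and 865 distal reference neurons. Car12 then stood at 8.98-fold, Pde11a at 5.99-fold, Nmu at 10.9-fold, Bnc2 at 11.5-fold, Ebf1 at 4.87-fold and Lmx1b at 6.40-fold, all in the direction reported above. The count of genes past 2-fold became 392 higher and 893 lower, against 203 and 140 with these nuclei. Of the 34 named genes past 2-fold higher in both libraries 33 stayed so, and Syt5 fell to 1.89 in the distal library. Ratios that moved away from 1 by over 1.5 times were those of Ccdc172 (14.8), Gmnc (32.3), Lemd1 (11.3), Car8 (9.90), Tacr3 (10.9) and Syt9 (3.40) on the higher side. On the lower side they were Pax2 (0.128), Pax8 (0.108), Cacna2d3 (0.171), Kcnmb2 (0.210), Htr4 (0.346), Runx2 (0.0935) and Gm20713 (0.0480). Vwa3b moved to 5.30 and Gm45323 to 0.692, both nearer to 1. Over all 555 distal members Pax8 had 11 UMIs, Pax2 29, Runx2 98 and Gm20713 108. Fewer UMIs remained in the 122 members, and no interval is given for the values without Xist nuclei.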

How the data were processed

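Single-nucleus libraries of 2 cord regions, 1 per region, were analysed from the UMI counts per gene and barcode that the authors deposited, made with Cell Ranger 7.1.0 per the file headers. The submitters' processing notes also name Seurat and the builds mm10 and GRCh38; strand settings and read-level filters are not given in the sources used here. Counts were used as deposited, with no added cell filter and no doublet caller. Counts per gene were summed over members and over reference neurons (weighted to the members' depths over 10 UMI bins) and divided by the total without Ebf2. Intervals are exact Poisson for levels, Clopper-Pearson for shares and conditional for ratios, at 95%. They cover counting error only, since each region has 1 library and no model or test of replicates could be made. UMI totals set the precision: a gene at 20 CPM has few UMIs in a member group. Gene positions came from GENCODE M21 on GRCm38, which held 32158 of 32285 features (99.6%). 22 gene lists and 15 marker lists with 443 list genes were used. The members and the lists were chosen with earlier results of these data known.

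Named genes were the markers; the 15 largest member over reference ratios, ranked by the lower of the 2 libraries (at least 20 CPM and 10 UMIs in both, and no barcode over 25% of the UMIs); the 10 smallest, among genes of at least 50 CPM in both references; up to 4 per list and direction past 2-fold in both libraries; the 8 largest and 8 smallest core over distal ratios; and Neurod1 and Slc17a6. Other genes named from a list, and all genes of the split by Nmu and Pde11a, were chosen after their values were seen. A list is described by its counts and its median log2 ratio. Alternatives were other Ebf2 and inhibitory limits, cell filters, minimum levels, scalings, weights, thinning to 1000 UMIs, references and sets of barcodes. The method was tested on simulated data. Python 3.11.15, numpy 2.4.6, scipy 1.17.1, pandas 2.3.3 and matplotlib 3.10.9 were used.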

Additional observations from a re-analysis of the deposited data

How the results depend on the processing

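Values are the numbers of genes past 2-fold, at first 207 in the core, 343 in the distal library and 1067 between core and distal members. The core count became 137 with at least 3 and 398 with at least 6 Ebf2 UMIs. No minimum level gave 9707, 7329 and 8134, because genes of a few UMIs then enter, and 50 CPM with 20 UMIs gave 94, 191 and 533. Thinning to 1000 UMIs gave 498 in the core and 886 in the distal library. The distal count was 587 with each nucleus weighted equally and 1465 without nuclei with 3 or more non-neuronal UMIs. The latter setting kept 83 distal members and 331 distal reference neurons. Chosen after seeing the data, a reference with a Slc17a6 UMI gave 674 distal genes, and leaving out nuclei with a Xist UMI gave 1285. The cause was not tested. The share of higher calls, 70.5% in the core, was 82.5% and 54.3% with 3 and 6 Ebf2 UMIs, 58.8% with no inhibitory UMI, 60.2% with equal weights, 43.6% after thinning, and 88.3% and 22.02% with the stricter and no minimum. In the distal library it was 59.2%, and 19.2% without nuclei with non-neuronal UMIs, 33.3% with no minimum, 42.4% after thinning, 49.1% and 48.7% with the Lmx1b and Slc17a6 references and 30.5% without Xist nuclei. Between regions it was 26.4%, and 76.6% and 56.6% without nuclei with non-neuronal and with Xist UMIs. Of 1838 values of single genes and shares under an alternative, 1515 stayed within the counting interval, 318 moved and 5 reversed. The reversed ones were Lmx1b under the reference chosen for Lmx1b (0.370 core, 0.394 distal), where the choice fixes the direction, Pax2 under it in the distal library (1.40), Pax8 in the core (1.14) and Reln in the distal library (0.921) under the Slc17a6 reference. Slc17a6, which was not past 2-fold, stood at 0.144 and 0.217 against the reference chosen for Slc17a6, where the choice again fixes the direction. Of the 34 named genes past 2-fold higher in both libraries, 28 stayed so with an unweighted reference and 29 both with at least 3 Ebf2 UMIs and without nuclei with non-neuronal UMIs. Depth limits genes under 20 CPM. No paired analysis was possible because each region has 1 library and the replicate number was given in accession order.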
